A study of Homo sapiens with 9 samples.

Results

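The paraoxonases PON1, PON2 and PON3 and the carboxylesterases CES1, CES2 and CES3 were followed in NT2 cells exposed to organophosphates. The members were the probes, other than control probes, to which the array's annotation gives one of these 6 gene names. They are 6 of the 32383 gene names on the array and came to 8 of its 42405 probes, 3 for paraoxonases and 5 for carboxylesterases, printed on 13 spots of each array. NT2 is a line of human embryonal carcinoma cells, derived from a teratocarcinoma, that takes a neural course in retinoic acid. All cultures, controls included, were kept for 4 days (96 h in the labels) in medium with 10 μM retinoic acid and serum. The 3 control arrays hold RNA of cells without an organophosphate, 3 arrays hold RNA after 1 μM paraoxon, the active form of the insecticide parathion, and 3 hold RNA after 5 μM mipafox, an inhibitor of neuropathy target esterase. Because the doses differ, values for both compounds are set side by side and not compared with each other.

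Both families meet organophosphates, by different routes. Paraoxonases are calcium-dependent lactonases; PON1 and PON3 are made mainly in the liver and travel on high-density lipoprotein, PON1 hydrolyses paraoxon, and PON2 is an intracellular membrane protein of many tissues. Carboxylesterases are serine hydrolases of the endoplasmic reticulum that cleave esters of drugs and lipids; organophosphates phosphorylate their active-site serine, so that each enzyme molecule takes up inhibitor and is lost. CES1 is best known from liver, CES2 from intestine and liver, and CES3 is the least studied of the family.

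The probes are printed here because what each gene's value stands for rests on them. Coordinates are those of the deposited files (hg19), and each probe has 60 bases. Exon and untranslated region were not assigned. The CES1 probes A_23_P206733 (chr16:55846846-55846905, minus strand) and A_33_P3389704 (chr16:55860080-55860139, minus strand) are given whole, 5′ to 3′. So is A_23_P215549 of PON3 (chr7:94989305-94989364, minus strand).
CES1 A_23_P206733: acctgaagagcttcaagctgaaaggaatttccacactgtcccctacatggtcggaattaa
CES1 A_33_P3389704: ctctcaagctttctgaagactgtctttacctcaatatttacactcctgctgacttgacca
PON3 A_23_P215549: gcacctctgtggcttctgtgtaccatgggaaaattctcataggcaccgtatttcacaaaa

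Of the other probes the last 30 bases are given. They are CES1 A_33_P3241269 (chr16:55836764-55836823, minus strand), PON1 A_33_P3340615 (chr7:94927687-94927746, minus strand), PON2 A_23_P31399 (chr7:95034500-95034559, minus strand), CES2 A_33_P3350393 (chr16:66978670-66978729, plus strand) and CES3 A_24_P90881 (chr16:67007926-67007985, plus strand). Capitals mark AATAAA, the letters of the polyadenylation signal.
CES1 A_33_P3241269: tttgggAATAAAggatcttttgaaggccaa
PON1 A_33_P3340615: ttcgatatatgactttttctcagtaaatat
PON2 A_23_P31399: ttaattttattccagtaaggaacggccctt
CES2 A_33_P3350393: accaagcctgccatgggtcctctcttgcta
CES3 A_24_P90881: cgggctgcaaaaggtgaaaagcaccaagag

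The array's annotation lists transcripts of 1 gene for 7 of the probes, and for CES1 A_33_P3389704 it lists the pseudogene CES1P1 as well. In the RefSeq gene order of the GRCh38.p14 assembly PON3 lies between PON1 and PON2 on chromosome 7. CES2 lies next to CES3 on chromosome 16, and CES1 lies on the same chromosome next to CES5A.

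The replicates of a treatment are lettered A to C, and per-array values are given in that order. The study's text calls them technical and its labels biological, so the p-values measure the spread between these arrays, which may be technical. There were 2 slides. Mipafox A was on slide 1 with the controls, whereas mipafox B and C were on slide 2 with paraoxon. Paraoxon and control therefore had no slide in common, and a fit with slide as a term links them only through the mipafox arrays. In such a fit the mipafox estimate is mipafox A minus the control mean, so it rests on 1 mipafox array. The paraoxon estimate of that fit depends on mipafox A as well. The share of probes well above background ranged from 65.7% to 73.6% among arrays. Levels are log2 of the processed signal minus the array's 75th percentile of that signal, called log2 level here; a level of 0 is the 75th percentile. Levels are compared between arrays for the same probe only, since brightness also depends on the probe. All 6 embryonal carcinoma markers on the array, POU5F1 and LIN28A among them, were well above background on all 9 arrays, and their summed level, in multiples of the array's 75th percentile, was 87.1 to 93.0 in control, 81.8 to 87.0 with paraoxon and 70.1 to 109 with mipafox. Of 4 neural progenitor markers 3 were so measured, NES and PAX6 among them, and SOX1 on 1 array; the sum was 27.8 to 32.9, 27.5 to 29.1 and 26.5 to 32.0 in the same order. Of 4 neuron markers TUBB3 and MAP2 were measured on all 9 arrays, with sums of 11.4 to 14.4, 10.4 to 12.3 and 13.2 to 13.5. Of 3 astrocyte markers only S100B was measured on all arrays, GFAP on none and AQP4 on 1, and the sums lay between 0.040 and 0.056. In bulk RNA of this kind, fewer cells of a type and less RNA per cell cannot be told apart.

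Of the 6 genes, PON2, CES1, CES2 and CES3 were measured well enough to be tested and PON1 and PON3 were not. PON2 and CES2 were above background on every spot of every array. The test took probes that were well above background on all arrays of at least 1 treatment, which 5 of the 8 member probes were. No member spot was saturated or marked as an outlier on any array.

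PON1, the enzyme that gave the family its name, was well above background on 0 of its 18 spots over the 9 arrays. Its processed signal was 6.61, 5.15 and 3.27 on the control arrays, 4.02, 2.62 and 4.67 on the paraoxon arrays, and 3.39, 3.88 and 4.06 on the mipafox arrays. All 9 values belong to a probe not well above background, so no fold change is given. The 3 treatments overlapped.

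PON3, the other lipoprotein-bound paraoxonase, was well above background on 2 of its 18 spots, one each on control B and mipafox B. Its processed signal was 10.8, 5.79 and 9.81 on the control arrays, 14.4, 6.23 and 5.97 on the paraoxon arrays, and 5.88, 11.1 and 8.23 on the mipafox arrays. The 3 treatments covered overlapping ranges, and with 0 to 1 measured array per treatment no fold change is given. The remaining CES1 probe, A_33_P3389704, was well above background on 0 of 9 arrays, with signals between 2.50 and 5.68.

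PON2, the intracellular paraoxonase, was the member with the smallest range over the arrays, 0.61 on the log2 scale. Its log2 level was 1.53, 2.08 and 1.99 on the control arrays, 2.08, 2.14 and 1.53 on the paraoxon arrays, and 1.66, 1.82 and 1.79 on the mipafox arrays. The lowest values, on control A and paraoxon C, came from different treatments and slides, and the mipafox values lay inside the control range. The mean ± SD of 3 arrays was 1.86 ± 0.29 for control, 1.92 ± 0.33 for paraoxon and 1.76 ± 0.086 for mipafox. In the limma fit of all 9 arrays the log2 fold change was 0.053 with paraoxon, with a 95% interval from -0.41 to 0.52 and an adjusted p of 0.953. With mipafox it was -0.11, from -0.57 to 0.36, with an adjusted p of 0.971. In linear terms these intervals run from 0.752 to 1.43 times control for paraoxon and from 0.673 to 1.28 times control for mipafox.

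CES2, the carboxylesterase that cleaves esters with a large alcohol group, had its highest values with mipafox. Its log2 level was -1.03, -1.58 and -1.49 on the control arrays, -1.64, -1.77 and -0.97 on the paraoxon arrays, and -1.33, -0.85 and -0.78 on the mipafox arrays. Mipafox B and C were above every control array, mipafox A lay within the control range, and paraoxon C was the only paraoxon array above it. The mean ± SD of 3 arrays was -1.37 ± 0.30 for control, -1.46 ± 0.43 for paraoxon and -0.99 ± 0.30 for mipafox. The log2 fold change in limma was 0.38 with mipafox (95% interval -0.19 to 0.95, SE 0.25), and neither the unadjusted p of 0.170 nor the adjusted p of 0.850 passed. With paraoxon it was -0.093 (-0.67 to 0.48), with an adjusted p of 0.928.

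For CES2, mipafox A, the only mipafox array on slide 1, lay below mipafox B and C on slide 2. The control arrays of slide 1 spanned 0.55 and the paraoxon arrays of slide 2 spanned 0.80, so 1 array cannot show a slide difference. Within slide 1, mipafox A differed from the control mean by 0.037. Mipafox B and C on slide 2 were on average 0.51 above mipafox A on slide 1. With slide as a block the mipafox estimate was the same 0.037 as within slide 1, since that fit takes it from mipafox A alone. The paraoxon estimate of that fit was -0.61 (SE 0.43). When limma gave each array a weight, the mipafox estimate was 0.62 with an adjusted p of 0.0224, below the log2 limit of 1 for a call. Over all tested probes the same fit called 800 with mipafox. That fit gave the control arrays weights of 0.387, 4.37 and 1.80 and the mipafox arrays weights of 0.400, 3.05 and 0.285. Over the other settings tried the adjusted p of CES2 with mipafox was 0.429 or higher.

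CES3 was measured near background: its probe was well above background on 8 of 9 arrays, mipafox A being the exception. Its log2 level was -5.21, -6.08 and -5.59 on the control arrays, -5.94, -5.12 and -5.56 on the paraoxon arrays, and -6.10, -5.74 and -5.42 on the mipafox arrays. The 3 treatments covered nearly the same range. The limma log2 fold change was 0.090 with paraoxon (95% interval -0.55 to 0.73, adjusted p 0.939) and -0.12 with mipafox (-0.77 to 0.52, adjusted p 0.975).

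**Figure D1:**
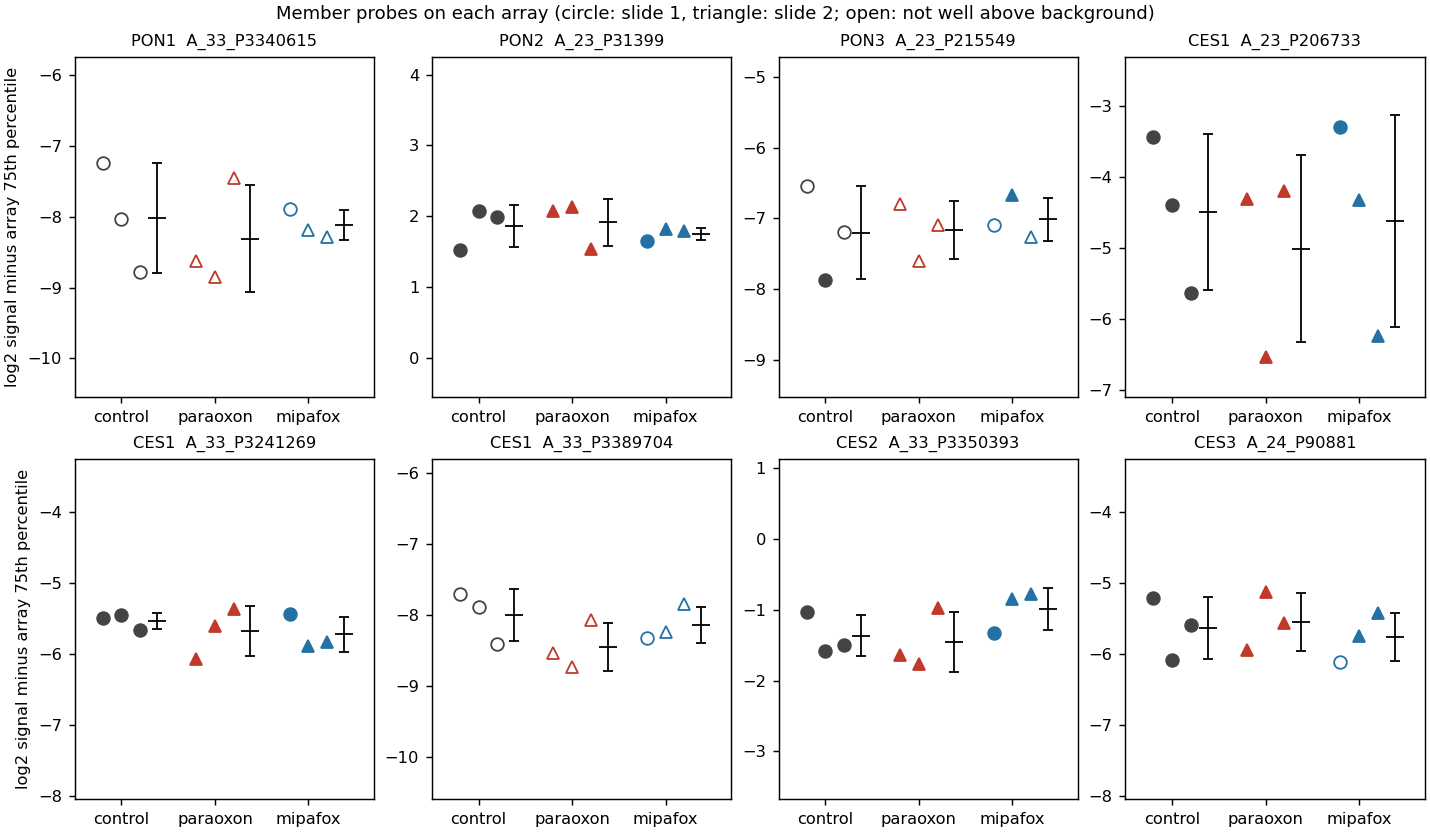
Log2 level (log2 processed signal minus the array's 75th percentile, vertical axis; each panel spans the same number of log2 units) of the 8 member probes on the control, paraoxon and mipafox arrays, one point per array in the order A, B, C. Circles are slide 1, triangles slide 2, open symbols arrays where the probe was not well above background, and bars the mean ± SD of 3 arrays. The treatments overlap in every panel, and CES1 A_23_P206733 spreads over 3.24 log2 units.

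CES1, the liver carboxylesterase, had a pair of probes well above background on all 9 arrays, and they behaved differently. The log2 level of A_23_P206733 was -3.43, -4.39 and -5.64 on the control arrays, -4.31, -6.53 and -4.19 on the paraoxon arrays, and -3.29, -4.31 and -6.24 on the mipafox arrays. Each treatment held a high and a low array, and the whole range of 3.24 corresponds to 9.46-fold. The low arrays were control C, paraoxon B and mipafox C. In the correlations between arrays used for the letter check below, control C stood at 0.66 with paraoxon B and 0.57 with mipafox C. Paraoxon B and mipafox C stood at 0.66, and the cause was not tested. The log2 level of A_33_P3241269 was -5.50, -5.45 and -5.67 on the control arrays, -6.07, -5.60 and -5.36 on the paraoxon arrays, and -5.44, -5.89 and -5.83 on the mipafox arrays. Its range was 0.71, or 1.63-fold, and on paraoxon B, the lowest array for the first probe, it lay in the middle of its treatment. Control C was the lowest control array and mipafox A the highest mipafox array for both probes.

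The spread of A_23_P206733 lay between arrays of one treatment. Its SD within treatments was 1.32, which stood at the 99.5th percentile of the 29134 tested probes, whose median was 0.25. For A_33_P3241269 the SD was 0.26, for PON2 0.26, for CES2 0.35 and for CES3 0.40. The mean ± SD of 3 arrays for this probe was -4.49 ± 1.105 for control, -5.01 ± 1.32 for paraoxon and -4.61 ± 1.50 for mipafox. Its limma log2 fold change was -0.52 with paraoxon, with a 95% interval from -2.49 to 1.45 and an adjusted p of 0.866. With mipafox it was -0.13, from -2.10 to 1.84, with an adjusted p of 0.993. These intervals allow anything from 0.178 to 2.73 times control with paraoxon. The estimate of the second probe, whose signals lay between 18.5 and 30.8, was -0.14 with paraoxon (-0.60 to 0.32, adjusted p 0.846) and -0.18 with mipafox (-0.65 to 0.28, adjusted p 0.938). Its paraoxon estimate was 0.29 (SE 0.34) with slide as a block and -0.42 with array weights, both inside the interval from -0.60 to 0.32. That narrower interval belongs to 1 probe in the fit without slide (SE 0.21), and it is not taken to bound the change of the gene.

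The 2 spots of A_23_P206733 also disagreed. On 8 of 9 arrays the second spot was brighter than the first. The signals of the first and second spot were 60.2 and 142 on control A, 37.6 and 109 on control B, 67.1 and 95.8 on paraoxon A, and 58.0 and 55.6 on mipafox B, the array where the order turned. The median difference between the spots was 1.06 on the log2 scale, or 2.08-fold, at the 99.9th percentile of 6057 tested probes with 2 spots, whose median was 0.066. The same measure was 0.035 for PON2 and 0.094 for CES2. Both spots of the CES1 probe nevertheless followed the same arrays, with ranges of 3.26 and 3.23. Taken alone, the first spot gave log2 fold changes of -0.14 with paraoxon and 0.26 with mipafox, and the second gave -0.91 and -0.51; this split was chosen after the values were seen. With slide as a block the estimates for the averaged probe were 1.47 (SE 1.47) with paraoxon and 1.20 (SE 1.15) with mipafox. Their sign was opposite to that of the fit without slide, and both rest on mipafox A as the only mipafox array on slide 1.

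**Figure D2:**
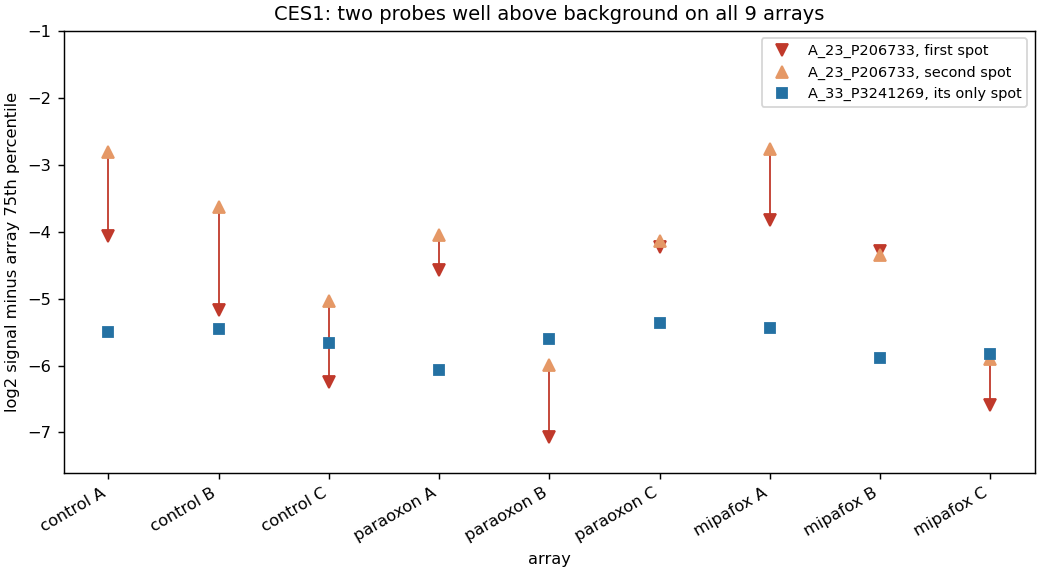
Log2 level (vertical axis) of the CES1 probes on each of the 9 arrays (horizontal axis). Triangles joined by a line are the 2 spots of A_23_P206733 and squares the single spot of A_33_P3241269. The triangles of each spot range over more than 3 log2 units across the 9 arrays, while the squares stay within 0.71. Within a treatment the mean of the 2 spots spans 2.20 (control), 2.34 (paraoxon) and 2.95 (mipafox).

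No member probe was called in either comparison. A probe was called when it passed 0.05 after adjustment and its log2 fold change exceeded 1 in either direction, and among all 29134 probes 0% were called with paraoxon and 0% with mipafox. At an unadjusted p under 0.05, 0 of the 5 tested member probes passed in either comparison. Over all tested probes 7.31% passed higher and 6.02% lower with paraoxon, and 2.96% higher and 4.00% lower with mipafox. With 5 probes, 0 passing is close to what these background shares give and is no result about the members. With paraoxon 2 of the 5 probes had a positive difference and 3 a negative one, with a median of -0.093 against 0.012 over all tested probes. With mipafox 1 was positive and 4 negative, with a median of -0.12 against 0.00099. Exposed and control arrays failed to overlap at 0 of the 5 probes in both comparisons, which share the control arrays, against 23.4% of all tested probes with paraoxon and 11.8% with mipafox, and with 5 probes nothing is read from that. A p that misses the threshold leaves the intervals above as the statement of what changes these arrays allow.

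**Figure D3:**
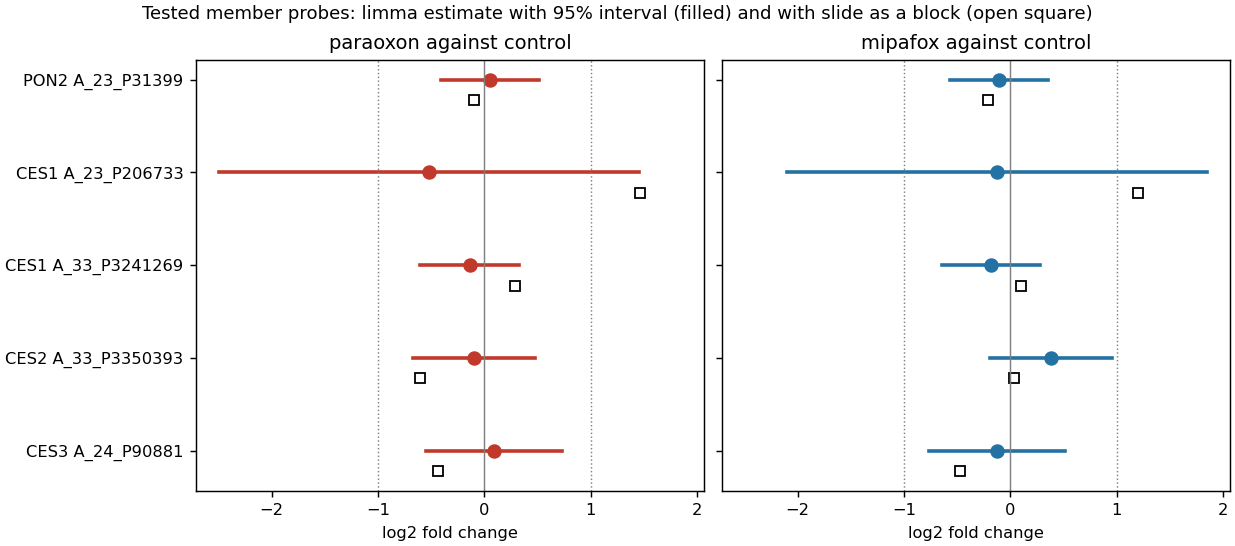
Log2 fold change against control (horizontal axis) of the 5 tested member probes with paraoxon and with mipafox. Filled circles and lines are the limma estimates of the fit of 9 arrays with 95% intervals, open squares the estimates with slide as a block, and dotted lines the limit of 1 in either direction. Every interval includes 0; the widest, of CES1 A_23_P206733, runs from -2.49 to 1.45 with paraoxon.

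The enzymes around the members were counted from lists, each gene by its brightest probe. Of 10 other esterases on the array, 6 were tested, 6 of 6 had a positive difference with paraoxon and 4 of 6 with mipafox, and none was called. The list medians were 0.18 and 0.15 against 0.012 and 0.00099 over all tested probes, and with 6 genes nothing is read from the direction. At an unadjusted p under 0.05 in limma, 0 passed with paraoxon and 1 with mipafox, beside 13.3% and 6.96% of all tested probes. Acetylcholinesterase, ACHE, the target of acute organophosphate poisoning, had a log2 level of -2.78 ± 0.20 (SD, n = 3) in control, and its log2 fold change was 0.15 (SE 0.15) with paraoxon and 0.23 (SE 0.15) with mipafox, with adjusted p of 0.747 and 0.836. Butyrylcholinesterase, BCHE, the plasma scavenger of organophosphates, had a log2 level of -3.79 ± 0.17 (SD, n = 3) in control and fold changes of 0.11 (SE 0.19) and -0.14 (SE 0.19), with adjusted p of 0.874 and 0.953. CES5A, a carboxylesterase known as cauxin and the neighbour of CES1, was the one list gene with an unadjusted p under 0.05: with mipafox its log2 level was -5.72 ± 0.20 (SD, n = 3) against -6.17 ± 0.20 (SD, n = 3) in control, a difference of 0.45 (SE 0.16) with p 0.0185 and adjusted p 0.593. With paraoxon the difference of CES5A was 0.20 (adjusted p 0.654), and its probe was well above background on 8 of 9 arrays. The pseudogenes CES1P1 and CES1P2 and the arylacetamide deacetylase AADAC were well above background on 0 arrays, and CES4A on 2.

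Enzymes outside both families that are related to, or reported as, organophosphate hydrolases were measured on all 9 arrays. PTER, a relative of bacterial phosphotriesterase, had a log2 fold change of 0.083 (SE 0.21) with paraoxon and -0.045 (SE 0.21) with mipafox. RGN, regucalcin, had 0.15 (SE 0.16) and -0.010 (SE 0.16). PEPD, the prolidase that cleaves dipeptides ending in proline, had -0.072 (SE 0.21) and 0.22 (SE 0.21). None of these 3 genes was called, and their adjusted p lay between 0.775 and 0.998.

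Partners and regulators gave no call either. Of 8 lipoprotein genes around PON1 and PON3 (apolipoproteins, remodelling proteins and the receptor SCARB1), 7 were tested, with median differences of -0.079 with paraoxon and -0.012 with mipafox and 0 calls; APOA2 was well above background on 0 arrays. Of 12 transcription factors tied to PON and CES genes, 9 were tested, with medians of 0.023 and -0.044 and 0 calls. Among the untested were NR1I2, the pregnane X receptor, and NFE2L2, the oxidative stress regulator, whose probes were well above background on 0 arrays, and HNF4A, a liver factor, on 1. The 3 KDEL receptors, which return proteins such as carboxylesterases to the endoplasmic reticulum, had medians of -0.060 and 0.0027 and 0 calls. At an unadjusted p under 0.05, 0 of the tested genes of these 3 lists passed in either comparison, beside 13.3% of all tested probes with paraoxon and 6.96% with mipafox, counting both directions.

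**Figure D4:**
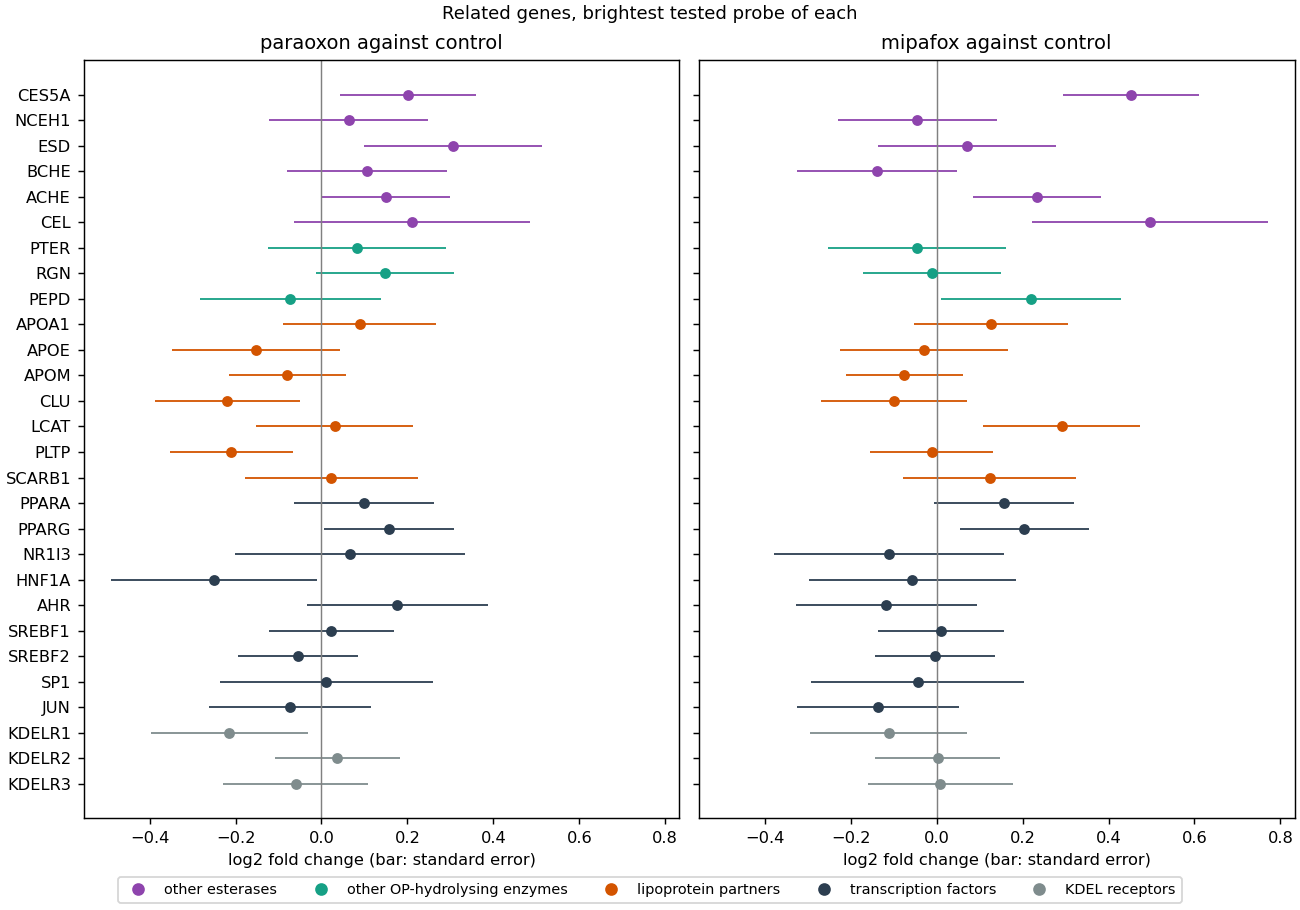
Log2 fold change against control (horizontal axis, bars are standard errors of the limma fit) of the tested genes in the lists of related genes, with paraoxon and with mipafox, coloured by list. The point of CES5A with mipafox, at 0.45, is the one with an unadjusted p under 0.05.

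Liver is the main source of PON1, PON3 and CES1, so hepatocyte and endoderm markers were read on the same arrays. Of the 6 markers SERPINA1 and FOXA2 were well above background on all 9 arrays, TTR on 0, and ALB, AFP and SOX17 on 1 each. The summed level of the list, in multiples of the array's 75th percentile, was 0.139 to 0.180 in control, 0.121 to 0.202 with paraoxon and 0.172 to 0.216 with mipafox.

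The probes whose pattern over the 9 arrays was most like a member's were looked up for the 3 members measured on all arrays, among 21038 probes, by Pearson's r. For PON2 they were NID2 (r = 0.975) and WDR61 (r = 0.969), for CES1 A_23_P206733 they were GLT25D2 (r = 0.991) and ZNF696 (r = 0.983), and for CES2 they were FYN (r = 0.975) and PMS2P1 (r = 0.973). The 9 points share slides and array scaling, and the best of so many probes is high by choice, so these are names only.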

How the data were processed

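RNA of NT2 cells was hybridized to 9 one-colour arrays (Cy3). The authors deposited for each array the Agilent Feature Extraction 10.5.1.1 output, with intensity values (processed, mean and background signal), and a table of processed log2 values, used here as an alternative.

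The 75th percentile of log2 processed signal over spots other than control spots was subtracted, spots flagged as outliers were dropped, and the mean over the remaining spots of each probe was taken. A probe counted as well above background on an array where at least a fraction of 0.5 of its spots did. A probe was tested if so measured on every array of 1 or more treatments and holding a minimum of 2 values in each, and the 29134 such probes were fitted with limma 3.58.1 in R 4.3.3 over all 9 arrays, with Benjamini-Hochberg adjustment over all of them. Values from saturated spots would have been kept, and there were 0 among members. The number of arrays limits the precision. Figures were drawn with matplotlib 3.10.9.

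Every member probe is named, with the list genes at an unadjusted p under 0.05, PTER, RGN, PEPD, BCHE and ACHE, and the 2 most alike genes of each member measured on all arrays; genes with values beyond these were named after the values were seen. The members and the lists were chosen with earlier results of these data known. The 12 alternatives listed covered scaling, background correction, the authors' values, filters, slide, replicate letter, arrays in the fit, array weights, variance model, outlier spots and each array left out; taking either spot of CES1 A_23_P206733 alone was added after seeing the data. The array's annotation of exons was not used here.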

Additional observations from a re-analysis of the deposited data

How the results depend on the processing

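The count of member probes called was 0 in both comparisons under all 20 settings applied to every probe, and at most 1 member passed an unadjusted p under 0.05, in each comparison with array weights: CES2 with mipafox (0.62, adjusted p 0.0224) and CES1 A_33_P3241269 with paraoxon (-0.42, adjusted p 0.0892, and 0.712 or higher under the others). That fit called 671 of all probes with paraoxon and 800 with mipafox. Its share of all probes under the unadjusted limit was not counted, so nothing is read from these members passing. Among the other settings, paraoxon calls over all probes were 276 with only the treatments compared, 275 without mipafox A and 77 without mipafox B. They were 7 with normexp and 1 without mipafox C. Mipafox calls were 78 without mipafox A. The fit with slide as a block made calls in both comparisons as well, not counted here because both estimates depend on mipafox A. Among the 10 estimates, those for CES2 and PON2 with mipafox kept their sign under every setting and the others turned sign under at least 2; the cause was not tested. The values below are those that turned sign, with the larger moves of the slide fit and the full ranges over arrays left out.

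With slide as a block, estimates with paraoxon were -0.094 for PON2, 1.47 for CES1 A_23_P206733, 0.29 for CES1 A_33_P3241269, -0.43 for CES3 and -0.61 for CES2 (-0.093 without slide). With mipafox they were 1.20 and 0.10 for those CES1 probes, -0.47 for CES3, -0.21 for PON2 and 0.037 for CES2. These mipafox estimates rest on mipafox A alone, where the CES3 probe was not well above background. Normexp gave -0.046 for PON2, 0.042 for CES1 A_33_P3241269 and -0.045 for CES3 with paraoxon, and 0.052, 0.13 and 0.066 for CES1 A_23_P206733, CES1 A_33_P3241269 and CES3 with mipafox. The authors' values gave 0.0057 for CES1 A_23_P206733 and -0.13 for CES3 with paraoxon and 0.19 for CES1 A_23_P206733 with mipafox. Array weights gave 0.017 and 0.33 for CES1 A_23_P206733 with paraoxon and mipafox and 0.15 for CES3 with mipafox. The first spot alone gave 0.26 for CES1 A_23_P206733 with mipafox.

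With each array left out in turn, paraoxon estimates ran from -0.11 to 0.24 for PON2, -1.10 to 0.24 for CES1 A_23_P206733, -0.30 to 0.057 for CES1 A_33_P3241269, -0.34 to 0.075 for CES2 and -0.14 to 0.30 for CES3. Mipafox estimates ran from -0.27 (without control A) to -0.0019 (without control B) for PON2, -0.79 to 0.69 for CES1 A_23_P206733, -0.33 (without mipafox A) to -0.098 (without mipafox B) for CES1 A_33_P3241269, 0.27 to 0.55 for CES2 and -0.35 to 0.084 for CES3.

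Same-letter arrays of different treatments correlated between -0.60 and 0.57, above 0.1 in 5 of 9 pairs. Pairs with different letters ran from -0.59 to 0.66, above 0.1 in 7 of 18, so the letters were not taken to pair arrays. With the letter as a replicate block 0 member probes were called, as without it.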
